A study of Homo sapiens with 6 samples.

Results

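The kallikrein-related peptidases are secreted serine proteases, and in the human genome their genes stand side by side on the long arm of chromosome 19. KLK3 encodes prostate-specific antigen (PSA), which liquefies semen by cleaving semenogelins and is measured in blood to follow prostate cancer. KLK2, KLK3 and KLK4 are known to be induced by androgen in luminal prostate epithelium, whereas most other members of the family are expressed in skin and other epithelia. The 10 genes described here, KLK1, KLK2, KLK3, KLK4, KLK5, KLK10, KLK11, KLK12, KLK13 and KLK15, were taken by name from the 58735 genes of the deposited tables.

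RNAseq was performed on C4-2B, a cell line established as a model of castration resistant prostate cancer (CRPC), and on its derivative RC4-2B. RC4-2B is described as a subclone, obtained over 4 months by cycles of 72 h of the taxane cabazitaxel (CBZ) followed by recovery, at concentrations that rose from 0.1 nM to 20 nM. Each cell line had 3 libraries labelled as biological replicates, and no drug is named for the cells that were sequenced. The sample labels name 10% fetal bovine serum for the medium, and the methods of the study name charcoal-stripped serum as well, so the androgen supply of the cultures is not settled by the sources used here. All RC4-2B libraries come from the same selected line, so p-values measure the spread between cultures of that line and not between independent selections.

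The libraries held 15707134 to 18052517 counts on genes, and 3 counts, taken as the floor of detection, corresponded to 0.17 to 0.19 CPM (counts per 1000000 of the TMM-scaled library total). This floor and the intervals given below cover counting error only. The luminal prostate markers KRT8, KRT18, FOXA1, TMPRSS2, FOLH1 and SLC45A3 (6 genes) were present, with a summed level of 2114 to 2192 CPM in C4-2B and 1946 to 1964 CPM in RC4-2B. Of 3 basal markers, KRT5 and TP63 had 0 counts and KRT14 had 4 to 17 counts. Of 3 leukocyte markers, PTPRC and CD3E stayed at or under 3 counts and CD68 at or under 5. Of 5 stromal markers, COL1A2 and DCN had 0 counts, and the summed level of 23.1 to 28.4 CPM in C4-2B and 25.2 to 38.7 CPM in RC4-2B came mostly from COL1A1. COL3A1 averaged 0.574 CPM in C4-2B against 1.87 CPM in RC4-2B, and ACTA2 averaged 2.46 against 0.826 CPM. Neither passed the threshold (edgeR, adjusted p = 0.051 and 0.073). Both were without overlap of the groups, as were 17.1% of all genes tested that were lower and 17% that were higher. Both passed with a correction for GC content (edgeR, adjusted p = 0.018 and 0.023) and without RC4-2B replicate 2 (edgeR, adjusted p = 0.016 and 0.011). The summed level of the endothelial markers PECAM1, VWF and CDH5 was 7.47 to 8.14 CPM in C4-2B and 3.64 to 5.07 CPM in RC4-2B, with PECAM1 and CDH5 at or under 3 counts throughout, and the part of these markers in the results was not tested. VWF was not past the threshold with all 6 libraries (edgeR, adjusted p = 0.065) or with the GC correction (edgeR, adjusted p = 0.083). It was past the threshold without RC4-2B replicate 2 (edgeR, adjusted p = 0.013). RC4-2B replicate 2 stood apart. Its log2 values differed from those of RC4-2B replicates 1 and 3 with a standard deviation of 0.63 and 0.56 over 11259 genes, against 0.25 between those replicates and 0.17 to 0.22 among the C4-2B libraries. Its difference from replicate 1 followed the GC content of the transcripts (Spearman correlation 0.75 for replicate 1 minus replicate 2, across genes, which are not independent replicates). The fits of KLK3, KLK2 and KLK15 are therefore given with and without it, as are most counts of list genes past the threshold. Most other single genes are given with all 6 libraries only.

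In the GRCh38 coordinates of the deposited tables, the 10 genes cover 246 kb of chromosome 19, from 50819148 to 51065114. In the order of their start they are KLK1, KLK15, KLK3, KLK2, KLK4, KLK5, KLK10, KLK11, KLK12 and KLK13. KLK3 (ENSG00000142515, 50854915 to 50860764) and KLK2 (ENSG00000167751, 50861568 to 50880567) lie on the plus strand, 803 bases apart, and the other 8 lie on the minus strand. KLK15 (ENSG00000174562) spans 50825289 to 50837213 and KLK4 (ENSG00000167749) spans 50906352 to 50910738. In GENCODE release 44 the canonical transcript has 5 exons in KLK1, KLK2, KLK3 and KLK13 and 6 exons in the other members, and the gene span equals that of the tables for 7 of the 10 genes. For KLK4 it reaches 657 bases further upstream, so reads from that stretch may be absent from the KLK4 counts. KLK15 overlaps the antisense gene AC011523.1 over 6684 bases. That gene had 3 to 12 counts per library, against 37 to 106 on KLK15, with 12 against 37 in RC4-2B replicate 1. Whether counting used strand is not given in the sources used here. KLK2 and KLK3 are close paralogs, but their GENCODE transcripts shared 11 sequence words of 50 bases, 0.217% of those of KLK3, and 0 words of 100 bases, and no other pair of members shared any of either length.

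The promoters of KLK3 and KLK2 are shown because these neighbours are paralogs with similar promoters, while KLK3 fell 11.02-fold relative to KLK2 in RC4-2B. Each window runs from 250 bases before the annotated transcript start to 50 bases from the start on (RefSeq, GRCh38.p14, written 5′ to 3′ on the strand of the gene). Capitals mark matches to a loose core of the androgen response element, which was searched as GNACA followed after any 4 bases by GTNC, and to TTTATA, the letters of a TATA-type box, or its reverse complement TATAAA. KLK15 and KLK4 follow for comparison, as the other members with enough counts to be tested. Each has a further window that is not shown, with its start at 50831523 for KLK15 and at 50911395 for KLK4. Neither of these holds the searched letters, and which start the cells used was not tested.
KLK3, chr19:50854665-50854964, plus strand: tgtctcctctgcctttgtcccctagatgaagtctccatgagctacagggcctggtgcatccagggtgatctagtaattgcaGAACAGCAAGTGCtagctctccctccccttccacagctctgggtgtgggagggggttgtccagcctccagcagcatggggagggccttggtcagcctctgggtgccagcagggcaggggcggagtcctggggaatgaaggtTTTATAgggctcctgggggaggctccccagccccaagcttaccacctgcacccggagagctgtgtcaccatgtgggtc
KLK2, chr19:50873189-50873488, plus strand: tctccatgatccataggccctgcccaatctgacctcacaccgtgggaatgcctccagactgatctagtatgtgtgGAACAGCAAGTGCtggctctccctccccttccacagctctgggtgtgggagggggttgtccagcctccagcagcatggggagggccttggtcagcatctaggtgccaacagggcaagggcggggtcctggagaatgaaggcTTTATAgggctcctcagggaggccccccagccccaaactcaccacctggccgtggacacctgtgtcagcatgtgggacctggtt
KLK15, chr19:50833525-50833824, minus strand: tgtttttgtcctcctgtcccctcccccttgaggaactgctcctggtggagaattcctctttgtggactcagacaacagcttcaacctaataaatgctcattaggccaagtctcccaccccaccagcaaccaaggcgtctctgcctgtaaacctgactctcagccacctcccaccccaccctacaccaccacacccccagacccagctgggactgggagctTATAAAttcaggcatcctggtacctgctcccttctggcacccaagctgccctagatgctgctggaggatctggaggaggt
KLK4, chr19:50910689-50910988, minus strand: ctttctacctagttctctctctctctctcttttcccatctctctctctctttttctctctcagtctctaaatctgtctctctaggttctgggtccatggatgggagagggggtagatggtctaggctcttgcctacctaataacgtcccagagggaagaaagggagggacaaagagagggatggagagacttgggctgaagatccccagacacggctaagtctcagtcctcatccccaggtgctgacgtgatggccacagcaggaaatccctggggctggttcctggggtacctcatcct

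The KLK3 and KLK2 windows were identical at 246 of 290 aligned bases (84.8%). The start of the KLK2 window used here is at 50873439, inside the span that the tables give for the gene. The loose core was found in the windows of KLK3 and KLK2 and in no window of the other 7 members that have one, against 2.19% of all 35116 windows of the same length, with both strands searched. The full 15-base stretch around this core lies 170 to 156 bases before the start of KLK3 and 176 to 162 bases before that of KLK2, and is shown in capitals with its flanks.
KLK3: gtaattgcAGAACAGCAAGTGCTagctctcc
KLK2: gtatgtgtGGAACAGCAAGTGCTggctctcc
Counted from 1 at the 5′ end of the capitals, with the KLK3 base first, the stretches differ by A1G. Of the 12 fixed letters of the palindromic element, which is AGAACA and its reverse complement TGTTCT with any 3 bases between, 10 matched in KLK3 and 9 in KLK2. The palindrome itself was found in 1 of the 35116 windows and in none of the members. The capitals TTTATA lie 28 to 23 bases before the start in KLK3 and 34 to 29 bases before it in KLK2, and its reverse complement lies 30 to 25 bases before the start in the KLK15 window shown, while 11.5% of all windows hold these letters on either strand. No match means only that these letters are not in the window, and no match is a measured binding site.

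Among the kallikreins, transcripts of KLK3 fell far in RC4-2B, those of KLK2, KLK15 and KLK4 did not pass the test (log2 fold changes of -0.84, -1.05 and -0.38), and the remaining members were at or near 0 in both cell lines. Of the 10 members, 4 had enough counts to be tested (KLK3, KLK2, KLK4 and KLK15). With edgeR (quasi-likelihood, adjusted by Benjamini-Hochberg over 15054 genes, threshold 0.05), 1 of the 4, KLK3, was lower and 0 were higher, where 0.903% of all genes tested were lower and 1.08% higher. With DESeq2, KLK3, KLK2 and KLK15 were lower (3 members, where 2.64% of all genes were lower and 3.28% higher). The same 3 members were lower with a correction for GC content (3.25% of all genes lower, 4.36% higher) and without RC4-2B replicate 2 (6.02% lower, 6.5% higher). In a bulk library, fewer cells that express a gene and less RNA per cell cannot be told apart.

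KLK3 had 17193, 17301 and 16093 counts in the C4-2B libraries (replicates 1 to 3), and RC4-2B replicates 1 to 3 had 875, 552 and 1006. Every RC4-2B library was far below every C4-2B library. The scaled mean went from 974 ± 55.1 CPM to 48.4 ± 14.9 CPM (SD, n = 3), which is 20.1-fold lower. The log2 fold change was -4.33 with a standard error of 0.24 and an adjusted p of 0.000154 in edgeR's test. It was -4.10 with a standard error of 0.096 without RC4-2B replicate 2. Of the genes tested, 20 (0.133%) had a log2 fold change at or below that of KLK3, where 1.94% were at or below that of KLK15, 3.63% at or below that of KLK2 and 17.7% at or below that of KLK4. In RC4-2B the PSA transcript was still present at over 500 counts in each library, well above the floor.

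KLK2, a trypsin-like protease known to activate the precursor of PSA, had 4106, 4095 and 4151 counts in the C4-2B libraries and 2717, 1340 and 2608 counts in RC4-2B replicates 1 to 3. The groups did not overlap, and the lowest value was that of RC4-2B replicate 2. C4-2B averaged 238 ± 6.67 CPM, and RC4-2B averaged 133 ± 49.9 CPM (SD, n = 3). On the log2 scale the difference was -0.84 with a standard error of 0.26, which did not pass (edgeR, adjusted p = 0.131). Without RC4-2B replicate 2 the change was smaller, at -0.56, but its standard error of 0.081 was also smaller, and the adjusted p in the same test was 0.000446. KLK2 was also past the threshold with DESeq2 (adjusted p = 0.0216) and with a correction for GC content (adjusted p = 0.0405, edgeR). Over all 19 alternative fits its adjusted p ranged from 9.01e-05 to 0.411.

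KLK15, which can also activate the PSA precursor, stood at 100, 106 and 89 counts in C4-2B and at 37, 60 and 42 counts in RC4-2B replicates 1 to 3. All RC4-2B libraries were below all C4-2B libraries, and here RC4-2B replicate 2 was the highest of its group, in contrast to KLK3, KLK2 and KLK4. The mean was 5.68 ± 0.53 CPM in the parental line against 2.73 ± 0.60 CPM (SD, n = 3), or -1.05 on the log2 scale (standard error 0.22), just above the threshold (edgeR, adjusted p = 0.057). The adjusted p was 0.00233 without RC4-2B replicate 2, 0.0102 with DESeq2 and 0.0385 with the GC correction, and it ranged from 0.00163 to 0.264 over all 19 alternatives.

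KLK4, a protease known both from the prostate and from the maturation of tooth enamel, had 2193, 2075 and 2328 counts in C4-2B and 1744, 1284 and 1870 counts in RC4-2B. The groups again did not overlap, but the highest RC4-2B value (110 CPM) lay close to the lowest C4-2B value (117 CPM). The parental mean of 127 ± 8.24 CPM compares with 97.4 ± 20.9 CPM (SD, n = 3), or -0.38 on the log2 scale (standard error 0.17, edgeR adjusted p = 0.231). With the GC correction the value was -0.063 with a standard error of 0.092. KLK4 transcripts have the highest GC content of the tested members, 61.3% in the longest transcript against 51.1% in KLK2, 53.8% in KLK15 and 54.4% in KLK3, and the KLK4 change was not past the threshold in any of the 20 fits. All 4 tested members had groups that did not overlap, with RC4-2B lower, as had 17.1% of all genes tested.

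**Figure D1:**
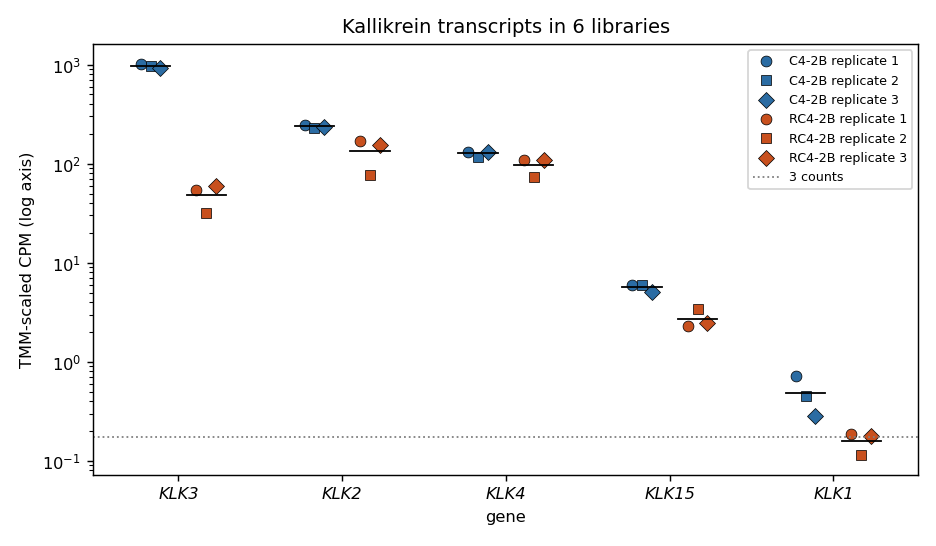
TMM-scaled CPM on a log axis for the 5 kallikreins with counts in all libraries, with blue symbols for C4-2B, orange symbols for RC4-2B, a symbol shape for each replicate, black bars for group means and a dotted line at 3 counts. KLK3 dropped from 974 to 48.4 CPM on average, while KLK2 and KLK4 stayed above 100 CPM in RC4-2B replicates 1 and 3.

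The other 6 members were below the filter on low counts. KLK1, the tissue kallikrein that releases kinins from kininogen, had 12, 8 and 5 counts in C4-2B and 3, 2 and 3 counts in RC4-2B. All RC4-2B libraries were thus at or under the floor of 3 counts per library. The C4-2B mean of 0.485 CPM was 2.72-fold above the mean of that floor, a ratio that leaves out the counting error of the C4-2B counts. KLK12 had 2, 3 and 1 counts in C4-2B and 0 counts in each RC4-2B library, so no fold is given. KLK5, known for its role in the shedding of skin cells, and KLK10, KLK11 and KLK13 had 0 counts in all 6 libraries, where a count of 0 allows up to 3 counts, or 0.188 CPM in the shallowest library (RC4-2B replicate 1). Of the kallikrein rows of the same cluster outside the 10 members (KLK6, KLK7, KLK8, KLK9, KLK14 and the pseudogene KLKP1), 3 had 0 counts throughout, 4 stayed at or under 3 counts, and KLKP1 alone was tested. KLKP1, which lies between KLK2 and KLK4, stood at -0.041 on the log2 scale (standard error 0.23).

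Because the 4 expressed genes lie close together, the make-up of the kallikrein transcripts was compared within each library, where library scaling plays no part. KLK3 made up 72.8% (95% Wilson interval 72.3 to 73.4), 73.3% (72.8 to 73.9) and 71.0% (70.4 to 71.6) of the counts on the 10 genes in C4-2B replicates 1 to 3. In RC4-2B replicates 1 to 3 its share was 16.3% (15.3 to 17.3), 17.0% (15.8 to 18.4) and 18.2% (17.2 to 19.2). KLK2 took 17.4%, 17.4% and 18.3% of the counts in the C4-2B libraries, against 50.5%, 41.4% and 47.2% in the RC4-2B libraries. For KLK4 the shares were 9.29%, 8.80% and 10.3% against 32.4%, 39.7% and 33.8%. RC4-2B replicate 2, which stood apart in its levels, lay between the other RC4-2B libraries in the share of KLK3, but had the lowest share of KLK2 and the highest of KLK4. The 10 genes together summed to 23606, 23588 and 22667 counts in the C4-2B libraries, against 5376, 3238 and 5529 in the RC4-2B libraries.

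**Figure D2:**
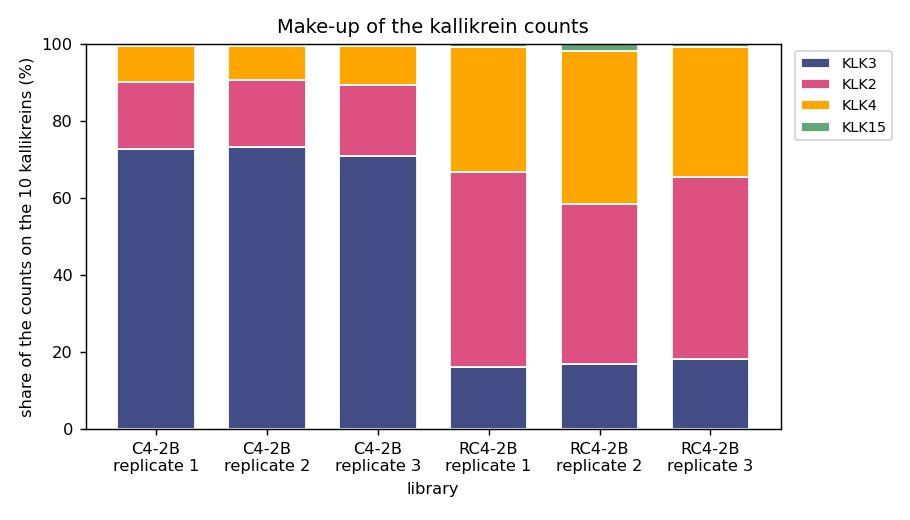
Stacked bars give the share in % of the counts on the 10 kallikreins that fell on KLK3, KLK2, KLK4 and KLK15 in each of the 6 libraries. KLK3 took 71.0% to 73.3% in the C4-2B libraries and 16.3% to 18.2% in the RC4-2B libraries, with KLK2 and KLK4 taking most of the rest.

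The fall of KLK3 was then set against that of each expressed neighbour. For every count on KLK2 there were 4.19, 4.22 and 3.88 counts on KLK3 in the parental libraries, against only 0.322, 0.412 and 0.386 in those of RC4-2B. The log2 ratio of KLK3 to KLK2 fell from 2.03 ± 0.068 to -1.43 ± 0.18 (SD, n = 3), so KLK3 was 11.02-fold lower relative to KLK2. Relative to KLK4 the log2 ratio fell from 2.94 ± 0.14 to -1.04 ± 0.17 (SD, n = 3), or 15.7-fold. Relative to KLK15 it fell from 7.42 ± 0.073 to 4.10 ± 0.79 (SD, n = 3), or 9.97-fold, with 3.19 in RC4-2B replicate 2 against 4.55 and 4.57 in replicates 1 and 3. In all 3 pairs the libraries of the cell lines did not overlap, and the exact permutation test, two-sided, gave p = 0.1 for each pair and 0.1 after Benjamini-Hochberg adjustment over the 3 pairs, the smallest p that 3 libraries against 3 allow. Without RC4-2B replicate 2 the log2 difference against KLK15 was -2.86. With the GC correction the log2 differences were -3.42, -4.19 and -3.30 for KLK2, KLK4 and KLK15.

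Levels between genes were compared per length, as the deposited FPKM values. In C4-2B the order was KLK3 (188 ± 9.85 FPKM), KLK4 (58.8 ± 4.11), KLK2 (33.3 ± 0.98), KLK15 (2.22 ± 0.20), KLK1 (0.182 ± 0.081) and KLK12 (0.058 ± 0.028), each mean ± SD with n = 3, and no neighbours in this order overlapped in their ranges. In RC4-2B the order was KLK4 (45.7 ± 8.95 FPKM), KLK2 (18.9 ± 6.74), KLK3 (9.47 ± 2.75), KLK15 (1.09 ± 0.27) and KLK1 (0.061 ± 0.014), with KLK12 listed at 0. KLK3 was thus the first of the kallikreins in C4-2B and the third in RC4-2B. The ranges of KLK2 and KLK3 in RC4-2B overlapped across libraries, at 11.2 to 23.8 and 6.35 to 11.5 FPKM, although KLK2 was above KLK3 within each library. The gene lengths behind these FPKM values, 6394 bases for KLK2 and 4639 for KLK3, are much longer than the canonical transcripts of 2829 and 1464 bases. With canonical lengths the order of the means was the same in both cell lines, but KLK4 and KLK2 then overlapped in both, and KLK2 and KLK3 overlapped in RC4-2B.

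Along the locus, KLK3 was the gene with the lowest log2 fold change. Within 500 kb of the outer ends of the 10 members the tables hold 94 other genes, of which 45 had 0 counts throughout and 18 were tested. Of the 18, 0 passed edgeR's test in either direction, where 0.903% of all genes tested were lower and 1.08% higher. At an unadjusted p under 0.05 there were 4 lower and 0 higher, where 9.42% of all genes tested were lower and 12.0% higher. With DESeq2, 1 of these neighbours passed, as lower, where 2.64% of all genes were lower. Their log2 fold changes ran from -1.42 to 0.33, with 16 of 18 below 0 and a median of -0.42, beside a median of 0.0063 over all genes tested. With the GC correction the median of the neighbours was -0.18. Without RC4-2B replicate 2, 5 of the neighbours passed, 4 lower and 1 higher, where 6.02% of all genes were lower and 6.5% higher. LINC01869, at -46.0 kb from the KLK3 start, had the value of -1.42 from a parental mean of 1.33 CPM, and was chosen here after its value was seen. Its adjusted p in edgeR's test was 0.109, 0.148 with the GC correction and 0.019 without RC4-2B replicate 2. C19orf48, at -57.2 kb and the most abundant tested neighbour in C4-2B, averaged 524 CPM there against 333 CPM in the resistant line. Its log2 fold change was -0.66 (standard error 0.23, edgeR adjusted p = 0.174, 0.0497 with the GC correction and 0.0093 without RC4-2B replicate 2). It was also chosen after its values were seen.

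**Figure D3:**
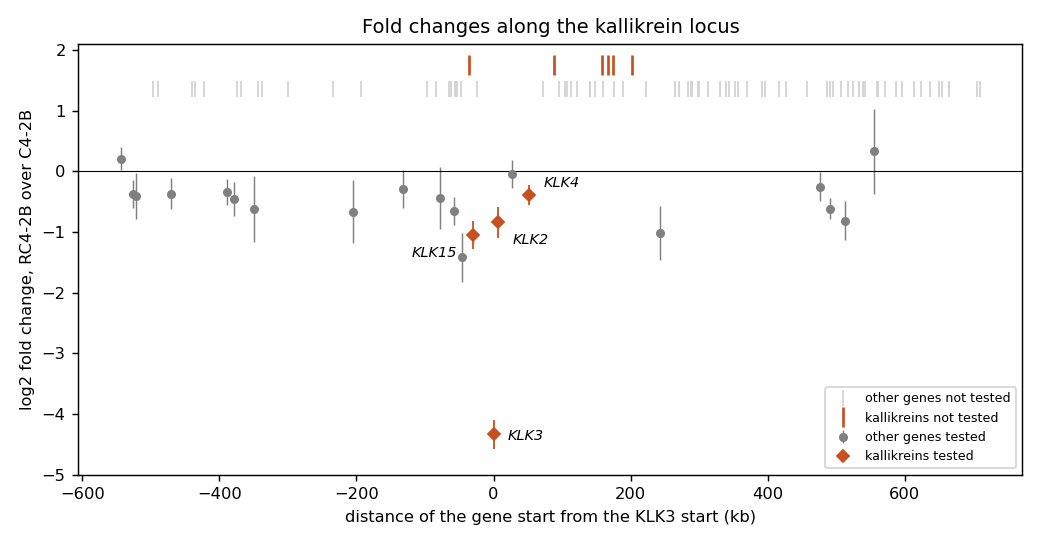
Log2 fold change with its standard error against the distance of the gene start from the KLK3 start in kb, with orange diamonds for tested kallikreins, grey points for other tested genes and ticks at the top for genes not tested. KLK3 lies at -4.33, while KLK15, KLK2, KLK4 and the 18 other tested genes lie between -1.42 and 0.33.

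Since KLK3 and KLK2 are known to be induced by androgen, transcription factors and cofactors of the androgen response and other androgen response genes were examined in the same fit. FOXA1, a pioneer factor that opens chromatin in prostate epithelium, averaged 426 ± 3.58 CPM in the parental line and 364 ± 36.0 CPM (SD, n = 3) in the resistant line, or -0.22 on the log2 scale (standard error 0.10, edgeR adjusted p = 0.249). All 17 genes of the cofactor list were tested. In edgeR's test 0 passed in either direction, where 0.903% of all genes were lower and 1.08% higher. At an unadjusted p under 0.05, 5 genes of the list were higher and 1 was lower. Of all genes tested, 12.0% were higher and 9.42% lower at that unadjusted p. With DESeq2 (2.64% of all genes lower, 3.28% higher) and with the GC correction (3.25% lower, 4.36% higher) the same 3 genes of the list passed, MED1 and HSP90AA1 higher and GATA2 lower, which are named here after their values were seen. Without RC4-2B replicate 2, 3 genes of the list were higher and 1 was lower, where 6.5% of all genes were higher and 6.02% lower. With any other library left out, 0 or 1 passed. Over the 17 genes the median change with all 6 libraries was 0.17 on the log2 scale.

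Of the androgen response list, 28 genes were in the tables and 27 were tested. In edgeR's test 3 were lower in RC4-2B and 1 was higher, where 0.903% and 1.08% of all genes were, and the median log2 fold change was -0.24 beside 0.0063 for all genes tested. TMPRSS2, a membrane serine protease and a standard androgen target, fell from 184 ± 11.5 to 87.2 ± 18.5 CPM (SD, n = 3), or by 1.08 on the log2 scale with a standard error of 0.16 (edgeR, adjusted p = 0.019). PMEPA1, a negative regulator of TGF-beta signalling, fell by 1.08 on the log2 scale as well, from 183 to 86.5 CPM, and PLPP1, a lipid phosphatase, fell by 0.82, from 226 to 128 CPM. NDRG1, which also responds to hypoxia, rose by 0.59 on the log2 scale, from 167 to 250.3 CPM. Without C4-2B replicate 1, 2 or 3, 0 genes of the list passed, and without RC4-2B replicate 3 only PMEPA1 did (1 gene). In those fits 44, 57, 56 and 78 of all genes passed, in that order, against 298 with all 6 libraries. Without RC4-2B replicate 1 the same 4 genes passed, among 474 of all genes. Without RC4-2B replicate 2 there were 11, 8 lower and 3 higher, where 6.02% of all genes were lower and 6.5% higher. With DESeq2, 5 genes of the list were lower and 1 was higher, where 2.64% and 3.28% of all genes were. FKBP5, a chaperone partner of steroid receptors and a common androgen target, was at 351 ± 18.5 and 353 ± 56.0 CPM (SD, n = 3), with groups that overlapped and a log2 fold change of 0.0054 (standard error 0.13).

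**Figure D4:**
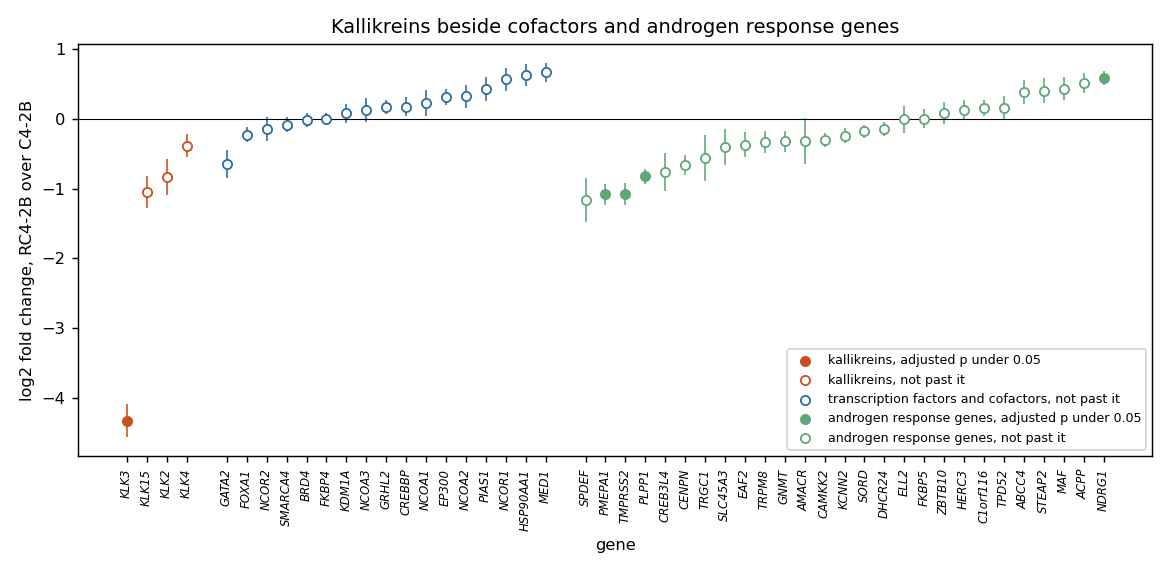
Log2 fold change with its standard error for the 4 tested kallikreins (orange), 17 transcription factors and cofactors (blue) and 27 androgen response genes (green), sorted within each list, with filled symbols for an adjusted p under 0.05 in edgeR's test. KLK3 lies at -4.33, below all other genes shown, and the androgen response genes run from -1.16 to 0.59.

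The proteins that inhibit kallikreins and those they cleave were looked at next. Of 14 inhibitor genes, 3 were tested, SERPINB6, SPINT1 and SPINT2, with log2 fold changes of 0.090, -0.15 and -0.35, and 0 passed edgeR's test (0 at an unadjusted p under 0.05, and 0 with DESeq2). SERPINA3 and SERPINA5, which bind PSA in blood and seminal plasma, had at most 1 count in any library. Of 20 genes for substrates and receptors, 8 were tested. FN1, which encodes fibronectin, was the only one past the threshold (1 gene, lower, where 0.903% of all genes were lower and 1.08% higher). It had 395, 486 and 707 CPM in the parental libraries against 199, 277 and 156 CPM in the resistant ones. Its log2 fold change was -1.33 (standard error 0.26, edgeR adjusted p = 0.041). With a library left out it passed in 1 of 6 fits, the fit without RC4-2B replicate 2, with an edgeR adjusted p of up to 0.151 in the others. Those others called 44 to 474 of all genes and the fit without RC4-2B replicate 2 called 1925, against 298 with all 6 libraries. SEMG1 and SEMG2, the semenogelins that PSA cleaves in semen, had 0 counts in all libraries.

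Among 12571 genes whose average log2 CPM was 1 or more, the 5 whose log2 CPM was most like that of KLK3 over the 6 libraries were LONRF2, OBSL1, LAMB2, MBD1 and STEAP1. Their Pearson correlations with KLK3 lay between 0.993 and 0.996, which describe 6 points that fall into 2 groups by cell line. LAMB2, a laminin chain, went from 91.2 ± 5.58 CPM down to 12.6 ± 1.58 CPM (SD, n = 3), or -2.85 on the log2 scale. OBSL1 had -5.09 and LONRF2 -2.17, while MBD1 and STEAP1, a prostate surface antigen, followed the pattern at a far smaller size of -0.67 and -0.33, with an adjusted p of 0.111 for STEAP1 in edgeR's test. For the other tested kallikreins the correlation with KLK3 was 0.90 for KLK15, 0.86 for KLK2 and 0.79 for KLK4.

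The log2 fold change of KLK3 stayed between -4.50 and -4.07 over 19 alternative fits, and its adjusted p was under 0.05 in all 19. KLK2 and KLK15 each passed in 6 of the 19 alternatives, in the same direction, and KLK4 passed in 0.

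**Figure D5:**
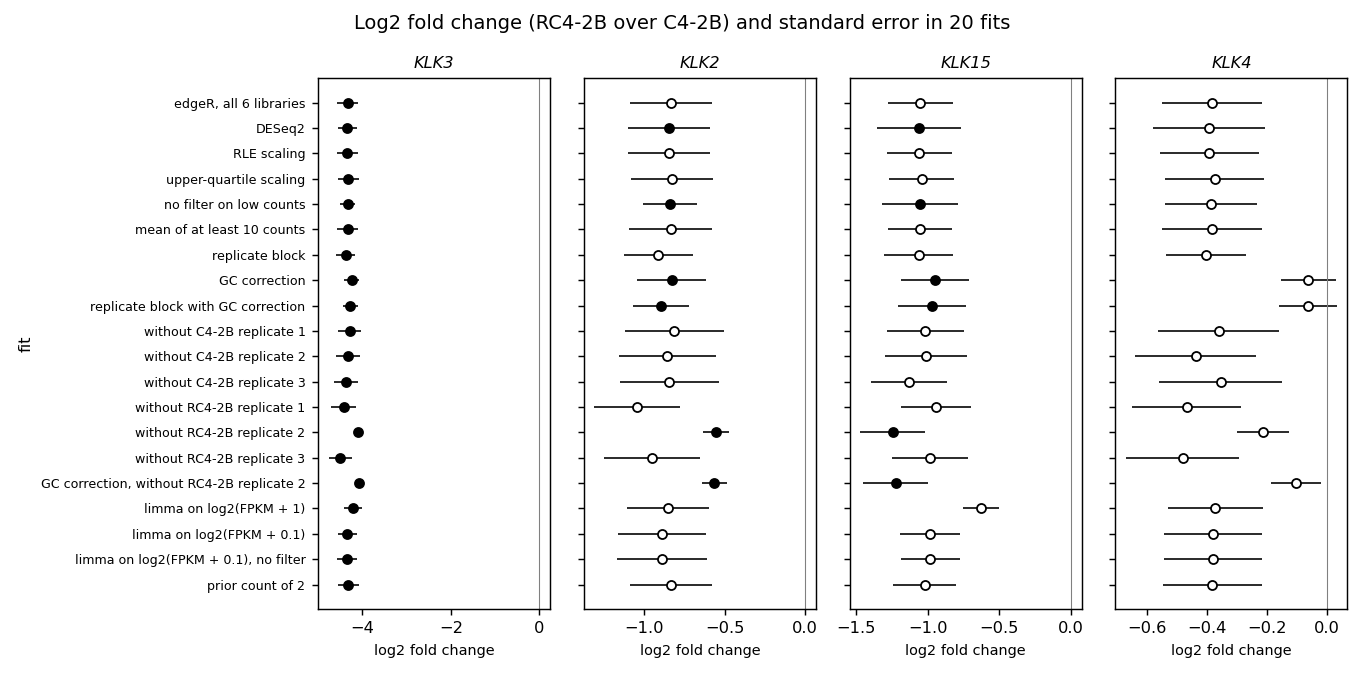
Log2 fold change and standard error of KLK3, KLK2, KLK15 and KLK4, each panel with its own axis, in the fit reported here (top) and in 19 alternatives, with filled symbols for an adjusted p under 0.05. KLK3 is filled throughout, KLK2 and KLK15 are filled in 6 alternatives each, and KLK4 is open throughout and lies nearest to 0 with the GC correction.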

How the data were processed

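Reads from 6 libraries (3 of C4-2B, 3 of RC4-2B) were mapped by the authors to GRCh38 with STAR. The authors deposited raw counts for each gene, and the deposited FPKM values divide these counts by gene length and by a total of 17878222 to 19817304 per library. Which program counted reads, whether it used strand and which annotation release it took are not given in the sources used here.

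The cell lines were compared with edgeR 4.0.16 in R 4.3.3 (TMM scaling, filterByExpr with a minimum of 10 counts, glmQLFit and glmQLFTest, no covariate), with Benjamini-Hochberg adjustment over 15054 genes. Standard errors were derived from the fold change and the F statistic. Ratios used 0.5 added counts. The methods of the study name DESeq2, which was run as an alternative (1.42.0), as were RLE and upper-quartile scaling, other filters, a prior count of 2, leaving out each library, a block for the replicate number, limma 3.58.1 on log2(FPKM + 1) and log2(FPKM + 0.1), and an offset for GC content (lowess, span 0.2, longest GENCODE 44 transcript, known for 99.6% of tested genes). Canonical lengths were added after seeing the data.

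All pairs of replicates differed by more than sampling noise (chi-square per gene 3.38 to 65.4). Promoter windows matched 9 of the 10 members by symbol. Members and lists were chosen with earlier results of these data known. Genes named beside the members were FOXA1, TMPRSS2 and FKBP5, genes of the lists or the locus window past the threshold, and the 5 genes most like KLK3, and the text says where a gene was chosen after its values were seen. The inhibitor genes and the semenogelins were also named after their values were seen. Some genes of the lists are not reported here and were left out of the list counts.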

Additional observations from a re-analysis of the deposited data

How the results depend on the processing

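KLK3 kept its direction and an adjusted p under 0.05 in all 19 alternatives, between -4.50 and -4.10 with a library left out, and KLK4 was not past the threshold in any. KLK2 passed with DESeq2 (log2 fold change -0.85), no filter on low counts (-0.84), the GC correction (-0.83), the GC correction with the replicate block (-0.89) and the GC correction without RC4-2B replicate 2 (-0.56). KLK15 passed in the same 5 fits, at -1.06, -1.05, -0.95, -0.97 and -1.22. With a library left out, both passed only without RC4-2B replicate 2, within ranges of -1.05 to -0.56 for KLK2, -1.24 to -0.94 for KLK15 and -0.48 to -0.21 for KLK4. In the same 5 fits, 3 members passed in place of 1, and with a library left out 1 to 3 did. The cause was not tested. The ratios of KLK3 to KLK2, KLK4 and KLK15 kept their direction in all 8 alternatives each. With a library left out they ranged from -3.54 to -3.36, from -4.05 to -3.88 and from -3.55 to -2.86 on the log2 scale, and this design cannot reach a p under 0.1.

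Same-numbered libraries of the cell lines had correlations of their deviations of 0.31, 0.18 and -0.073, so the numbers were not taken as pairs. With the replicate number as a block, KLK3 had a log2 fold change of -4.38, 129 genes passed in place of 298, and 0 of the substrate genes did. The number of genes past the threshold was 902 with DESeq2, 1146 with the GC correction and 1250 with no filter on low counts. With the GC correction, 3 cofactor genes, 7 androgen response genes, 2 substrate genes and 2 neighbours passed. With DESeq2, 3 cofactor genes, 6 androgen response genes, 1 substrate gene and 1 neighbour did. With a library left out, 0 to 4 cofactor genes and 0 to 11 androgen response genes passed. So did 0 to 3 substrate genes and 0 to 5 neighbours, each count highest without RC4-2B replicate 2. Those fits called 44 to 1925 of all genes. The most were also called without RC4-2B replicate 2, where 6.02% of all genes were lower and 6.5% higher. Windows of 100 kb and 1000 kb in place of 500 kb also held 0 neighbours past the threshold. At this depth, changes of genes under 0.17 to 0.19 CPM are not detectable.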
